A study of Homo sapiens with 2 samples.

Results

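A set of 40 genes of the amino acid response, a program driven by the transcription factor ATF4, was analyzed in mock- and DAC-treated HCT116 cells. The 40 genes were chosen by name, from the known members of the program, and each matched 1 of the 33538 genes listed in both tables. HCT116 cells derive from a human colon carcinoma. Decitabine (DAC), an analog of deoxycytidine, inhibits DNA methyltransferases by trapping them, and dividing cells then lose DNA methylation. DAC was given at 0.5 μM on days 1 and 3, the medium was replaced on day 5, and harvest followed on day 7. Mock-treated cells were the control, and each condition had 1 library. DAC therefore cannot be told apart from any other difference between the 2 cultures, such as their density or medium, and no test between conditions was made. The mock-treated library held 1783 cells and 49911689 transcript molecules, counted by unique molecular identifiers (UMIs), and the DAC-treated library held 1751 cells and 59046165 UMIs.

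When a cell runs short of amino acids, the kinase GCN2 phosphorylates the translation initiation factor eIF2α. General protein synthesis is then lowered, while the mRNA of *ATF4* is translated more. Kinases that sense unfolded proteins, double-stranded RNA, or heme act through the same step. ATF4 protein pairs with C/EBP proteins on composite DNA elements and turns on genes that make, import, and load amino acids onto tRNA, together with the stress factor CHOP (gene *DDIT3*) and the feedback inhibitor *TRIB3*. Colon cancer cells in culture use this program to adapt to asparagine, serine, or cystine shortage.

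The composite element bound by ATF4 and C/EBP proteins is called CARE, and the letters TGATGNAA were searched on both strands of RefSeq promoters of GRCh38.p14, from 250 bases before to 50 bases after the start of each gene. A promoter was found for 33 of the 40 genes, and 8 of these (24.2%) held the element, compared with 1270 of all 35116 promoters (3.62%). The cyclic AMP response element TGACGTCA, which does not overlap with CARE, was in none of the 33 promoters and in 649 of all promoters (1.85%). A match of letters is a description and does not show binding. A single RefSeq start was used for each of the 33 genes, and elements near other starts were not searched. For some genes, such as *TRIB3*, *PHGDH*, *SLC3A2*, and *MARS*, this start lay inside the annotated gene. Genes without an entry were *SLC7A11*, *GPT2*, *YARS*, *PSPH*, *NUPR1*, *SHMT2*, and *ALDH1L2*. The sites with up to 11 bases on each side are shown in the direction of the element, to show what the promoters share, with the element in capitals.
ASNS, chr7:97872458-97872487: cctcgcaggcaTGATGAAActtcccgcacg
AARS, chr16:70289675-70289704: tctaacttggcTGATGCAActgcgagaaaa
CHAC1, chr15:40953251-40953280: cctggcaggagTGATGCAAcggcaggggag
SLC3A2, chr11:62881725-62881748: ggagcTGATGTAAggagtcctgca
MARS, chr12:57488053-57488082: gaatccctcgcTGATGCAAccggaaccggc
SLC7A1, chr13:29595663-29595692: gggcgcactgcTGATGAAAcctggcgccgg
NARS, chr18:57621804-57621833: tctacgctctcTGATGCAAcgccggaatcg
ATF3, chr1:212565205-212565234: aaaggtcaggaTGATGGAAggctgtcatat

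Genes with the element were not lowered more in DAC-treated cells than those without. The median log2 ratio of DAC-treated over mock-treated cells was -1.06 for the 8 genes with it and -1.29 for the others with a promoter. *DDIT4*, *PCK2*, and *TRIB3*, among the most lowered of the 40 genes, had none in this window. The comparison depends on the start chosen for each gene. In *TRIB3* the window, from 381045 to 381344 of chromosome 20, lay inside the gene, which is annotated from 362835 to 397559. Of the genes with the element, *ASNS*, *AARS*, and *CHAC1* had the lowest ratios, and their 250 bases before the start are shown on the strand of the gene as examples. In *ASNS* the element lay 68 to 61 bases before the start and pointed in the direction of transcription. In *AARS* it lay 187 to 180 bases and in *CHAC1* 209 to 202 bases before the start, and in both it pointed against the direction of transcription, so that the capitals read as its reverse complement.
ASNS, chr7:97872409-97872658, minus strand: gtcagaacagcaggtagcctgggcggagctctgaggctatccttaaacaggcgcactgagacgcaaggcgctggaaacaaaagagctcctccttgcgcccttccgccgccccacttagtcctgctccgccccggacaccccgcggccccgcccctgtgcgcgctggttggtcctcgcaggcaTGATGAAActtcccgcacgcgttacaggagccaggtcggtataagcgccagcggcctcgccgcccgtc
AARS, chr16:70289507-70289756, minus strand: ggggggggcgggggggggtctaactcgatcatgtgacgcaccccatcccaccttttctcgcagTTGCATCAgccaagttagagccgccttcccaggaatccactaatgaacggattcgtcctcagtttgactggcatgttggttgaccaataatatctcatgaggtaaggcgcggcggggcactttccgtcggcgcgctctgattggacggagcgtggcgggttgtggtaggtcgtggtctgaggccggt
CHAC1, chr15:40953221-40953470, plus strand: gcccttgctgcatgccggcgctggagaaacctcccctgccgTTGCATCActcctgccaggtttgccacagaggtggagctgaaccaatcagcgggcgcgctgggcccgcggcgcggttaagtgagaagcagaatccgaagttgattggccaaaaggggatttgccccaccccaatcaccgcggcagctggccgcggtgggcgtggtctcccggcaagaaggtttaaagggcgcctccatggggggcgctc

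The 40 genes together were 2.53-fold lower in DAC-treated cells. Their sum was 256052 UMIs in mock-treated cells, or 0.513% of all UMIs, against 119650 UMIs after DAC, or 0.203%. The UMIs of each gene in all cells of a library were added and expressed per 1000000 UMIs of that library (CPM), and the ratio of the CPM in DAC-treated to that in mock-treated cells is given on the log2 scale. The ratio was below 0 for 37 of the 40 genes. Of the 40, 31 were lower by 1.5-fold or more and 26 by 2-fold or more, and 10 were lower by 4-fold or more. The share of all 13547 genes with 100 UMIs or more over both libraries that was lower by these folds was 14.2%, 6.8%, and 1.25%, respectively. Only *VLDLR* and *CBS* were higher by 1.5-fold or more, with 2 and 1 UMIs in mock-treated cells, while 31% of all genes were higher by this fold. Both had fewer than 100 UMIs over both libraries, and the other 38 genes had more. The median log2 ratio was -1.25 over the 40 genes and 0.24 over all genes. Median-of-ratios scaling moved the median of all genes to about 0 and that of the 40 genes to -1.49. With this scaling, 21.7% of all genes were lower and 21.2% were higher by 1.5-fold or more, and *ATF5* was still above 0, at 0.29. The plot of ratios by gene shows all but *ATF5*, *VLDLR*, and *CBS* on the lower side.

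**Figure D1:**
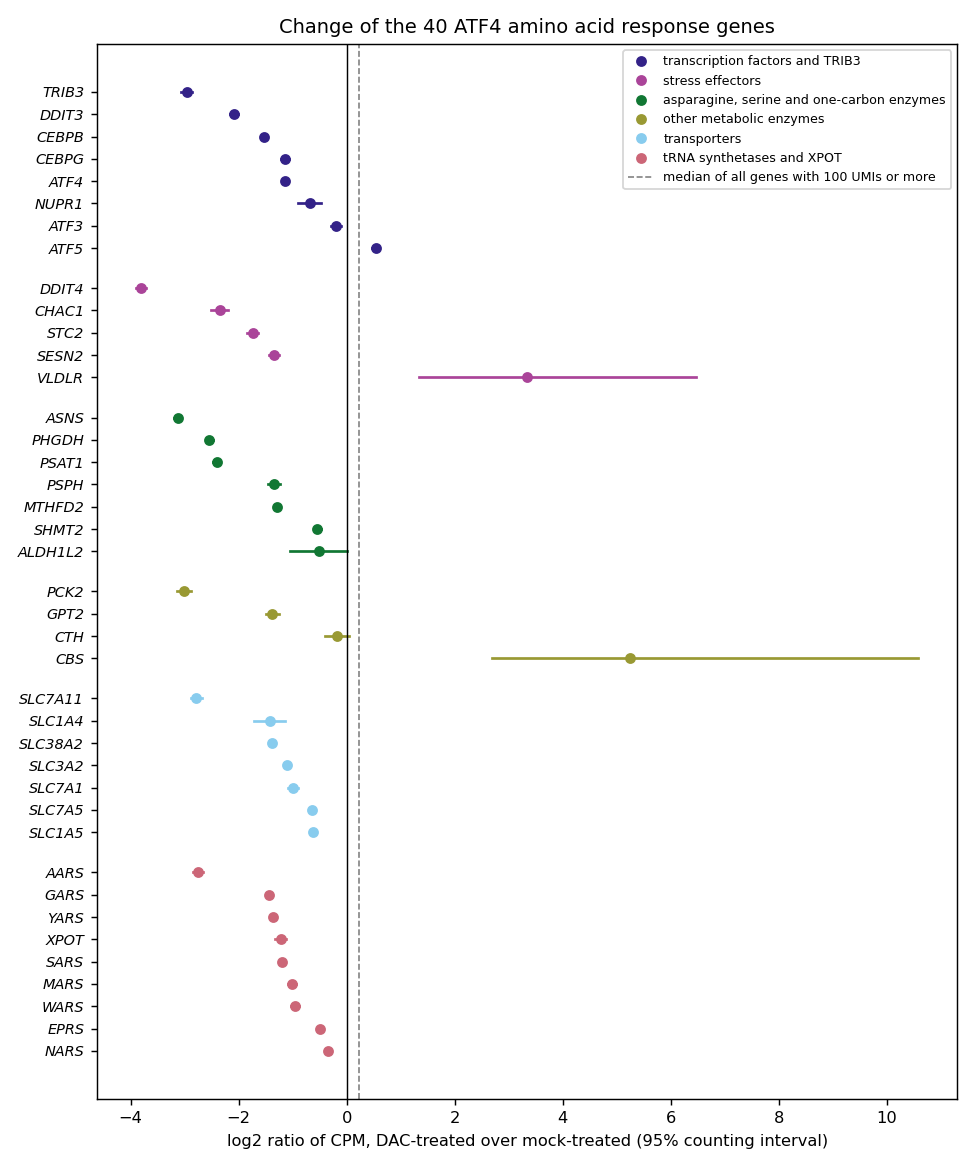
Log2 ratio of CPM, DAC-treated over mock-treated, for each of the 40 genes, grouped and colored by class. Points are ratios, lines are 95% intervals for counting error, and the dashed line is the median of all genes with 100 UMIs or more (0.24). *DDIT4* is the lowest at -3.81, and the 2 genes far to the right, *VLDLR* and *CBS*, rest on 2 and 1 UMIs in mock-treated cells.

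The libraries also differed in genes of the cell cycle. Of 20 S-phase genes, 18 were higher by 1.5-fold or more in DAC-treated cells, with a median log2 ratio of 1.13, and of 20 G2/M genes, 18 were higher, with a median of 1.01. The part of this difference in the lower level of the amino acid response genes was not tested. Of 8 colon epithelial markers, *EPCAM*, *KRT8*, *KRT18*, *KRT19*, *CDH1*, and *CLDN4* had between 1152 and 252746 UMIs in each library, while *VIL1* had 37 and 62 UMIs and *CDX1* had 0 and 58. Their levels moved in both directions, with log2 ratios of -1.67 for *CLDN4*, -0.65 for *EPCAM*, 0.79 for *KRT8*, and 1.08 for *KRT18*, and the part of this in the lower level of the program was not tested. Of 10 markers of leukocytes, fibroblasts, and endothelium, *CD68* and *COL1A1* had 321 to 1112 UMIs, and the other 8 had at most 10 UMIs in the mock-treated and 62 in the DAC-treated library. *PTPRC*, *CD3E*, *COL1A2*, *DCN*, and *PECAM1* were at 0 in mock-treated cells. Both libraries shared 12 barcodes, and the median share of mitochondrial UMIs per cell was 17.9% in mock-treated and 18.3% in DAC-treated cells.

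Of the transcription factors of the program and *TRIB3*, 6 of 8 genes were lower by 1.5-fold or more, with a median log2 ratio of -1.14. *ATF4* itself (chromosome 22 of hg38, from 39519695 to 39522683) had 335 CPM in mock-treated and 153 CPM in DAC-treated cells, a log2 ratio of -1.13 (95% interval for counting error, -1.17 to -1.10). UMIs measure its mRNA and not its translation. *DDIT3*, encoding CHOP, had 158 CPM in mock-treated and 37.2 CPM in DAC-treated cells, a log2 ratio of -2.09 (-2.16 to -2.02). Its annotated region on chromosome 12 overlaps the end of *MARS* on the opposite strand.

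A single DAC-treated cell had 375 of the 2194 UMIs of *DDIT3* in that library. Without the highest cell of each library, its log2 ratio was -2.34. *TRIB3*, a pseudokinase that is induced by ATF4 and CHOP and inhibits them in turn, was the most lowered gene of the class, with 124 CPM in mock-treated and 16.0 CPM in DAC-treated cells and a log2 ratio of -2.96 (-3.06 to -2.86). The C/EBP partners of ATF4 were lowered less. *CEBPB* had 177 and 61.2 CPM in mock- and DAC-treated cells (log2 ratio, -1.53), and *CEBPG* had 82.7 and 37.4 CPM (-1.14). *NUPR1*, a small stress-induced chromatin protein, had 8.54 and 5.30 CPM (-0.69, from -0.90 to -0.47). Its ratio turned to 0.51 when cells were thinned to about 1000 UMIs each and shallower cells were left out. This depth leaves few UMIs of a gene at so low a level, and no interval was computed for it.

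*ATF3* and *ATF5* did not follow the rest of the class. *ATF3*, a stress-induced repressor that is also a target of p53, had 39.0 CPM in mock-treated and 33.9 CPM in DAC-treated cells, a log2 ratio of -0.20 (-0.29 to -0.11). *ATF5*, a factor whose translation is controlled in the same manner as that of ATF4 and which responds to mitochondrial stress, had 60.8 CPM in mock-treated and 87.97 CPM in DAC-treated cells, a log2 ratio of 0.53 (0.47 to 0.60). The mRNA of *ATF5* was thus higher in DAC-treated cells, but by less than 1.5-fold.

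The stress effectors contained the gene lowered the most among the 40. *DDIT4*, encoding the inhibitor of mTORC1 known as REDD1, lies on chromosome 10, from 72273919 to 72276036. It had 11274 UMIs in mock-treated and 954 UMIs in DAC-treated cells. This was 226 and 16.2 CPM, a log2 ratio of -3.81 (-3.90 to -3.71), or a 14.0-fold lower level. Of 13547 genes, *DDIT4* ranked number 5 from the most lowered. *CHAC1*, which degrades glutathione, had 35.8 and 7.05 CPM in mock- and DAC-treated cells, a log2 ratio of -2.35 (-2.50 to -2.19). *STC2*, a secreted glycoprotein, had 67.5 and 20.2 CPM (-1.74). *SESN2*, which holds mTORC1 in check when leucine is low and is also a p53 target, had 50.6 and 19.9 CPM (-1.35). Both inhibitors of mTORC1 were thus lower. *VLDLR*, a lipoprotein receptor, had 2 UMIs in mock-treated and 24 UMIs in DAC-treated cells, a log2 ratio of 3.34 (1.33 to 6.47).

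The enzymes that make asparagine and serine were lower as a group, and 5 of 7 genes of the asparagine, serine, and one-carbon class were lower by 1.5-fold or more. *ASNS*, asparagine synthetase, spans 97851677 to 97872542 of chromosome 7. It had 13924 UMIs in mock-treated and 1881 UMIs in DAC-treated cells. This was 279 and 31.9 CPM, a log2 ratio of -3.13 (-3.20 to -3.06), or an 8.76-fold lower level. The 3 enzymes of the serine pathway were ordered from the first to the last step. *PHGDH*, the first enzyme, had 219 and 37.4 CPM in mock- and DAC-treated cells (log2 ratio, -2.55, from -2.61 to -2.48). *PSAT1*, the second, had 217 and 40.9 CPM (-2.41, from -2.47 to -2.34). *PSPH*, the last, had 44.8 and 17.6 CPM (-1.35, from -1.46 to -1.24).

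The intervals of the 3 serine enzymes did not overlap, but they cover counting error only. Mitochondrial one-carbon enzymes, which use serine to make formate, were lowered less than *PHGDH*. *MTHFD2* had 287 and 118 CPM in mock- and DAC-treated cells (-1.29), and *SHMT2* had 90.02 and 61.6 CPM (-0.55). *ALDH1L2*, a folate enzyme of mitochondria, had only 70 and 58 UMIs, and the interval of its log2 ratio, from -1.04 to 0.01, included 0.

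Of the other metabolic enzymes, *PCK2*, the mitochondrial PEP carboxykinase (chromosome 14, from 24094053 to 24110598), had 71.3 CPM in mock-treated and 8.84 CPM in DAC-treated cells, a log2 ratio of -3.01 (-3.15 to -2.88). *GPT2*, mitochondrial alanine aminotransferase, had 38.1 and 14.7 CPM (-1.38). Both enzymes of transsulfuration, the route from homocysteine to cysteine, stood apart from these. *CTH* had 324 and 340 UMIs in mock- and DAC-treated cells, and the interval of its log2 ratio, from -0.40 to 0.05, included 0. *CBS* had 1 UMI in mock-treated and 45 UMIs in DAC-treated cells (log2 ratio, 5.25, from 2.70 to 10.58). This value is uncertain, because the tables also list *CBSL*, a near-identical copy of *CBS* with 0 and 1 UMIs, and reads that fit both copies are not counted for either.

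All 7 amino acid transporters were lower by 1.5-fold or more, with a median log2 ratio of -1.11, but *SLC1A5* and *SLC1A4* were within 1.5-fold under some alternatives. *SLC7A11*, the cystine importer xCT (chromosome 4, from 138164097 to 138242349), was lowered the most, with 108 CPM in mock-treated and 15.7 CPM in DAC-treated cells and a log2 ratio of -2.79 (-2.89 to -2.69). Its heavy chain *SLC3A2*, which it shares with the leucine transporter *SLC7A5*, had 587 and 272 CPM (-1.11), and *SLC7A5* had 183 and 117 CPM (-0.64). The partners of *SLC3A2* thus differed in their ratios.

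*SLC38A2*, a transporter of neutral amino acids, had 264 and 101 CPM in mock- and DAC-treated cells (-1.38). The glutamine transporter *SLC1A5* had 111 and 72.0 CPM (-0.63), and its log2 ratio moved to -0.51 in cells thinned to about 1000 UMIs and to -0.58 when mitochondrial genes were left out of the total. *SLC1A4*, which carries serine and alanine, had 331 and 146 UMIs (-1.42, from -1.71 to -1.14). Its log2 ratio was -0.58 in the thinned cells, where few of its UMIs were left. The arginine and lysine transporter *SLC7A1* had 52.7 and 26.6 CPM (-0.99). In these 4 transporters, the lower level in DAC-treated cells was between that of *SLC7A5* and that of *SLC7A11*, except for *SLC1A5*.

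Each of the 8 tRNA synthetases and the tRNA exporter *XPOT* had a lower CPM in DAC-treated cells, and 7 of the 9 genes were lower by 1.5-fold or more (median log2 ratio, -1.19). *AARS*, for alanine (chromosome 16, from 70251983 to 70289707), had 130 CPM in mock-treated and 19.3 CPM in DAC-treated cells, a log2 ratio of -2.75 (-2.84 to -2.66). It stood apart from the rest of the class. The ratios of *GARS*, *YARS*, *XPOT*, *SARS*, *MARS*, and *WARS* lay between -1.43 for *GARS* and -0.96 for *WARS*, the tryptophan enzyme, which is also an interferon-stimulated gene. *EPRS* had 213 and 152 CPM (-0.49), and *NARS* had 140 and 110 CPM (-0.34). *NARS*, the asparagine enzyme, was thus the least lowered of the synthetases, whereas *ASNS*, which makes its substrate, was among the most lowered genes.

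The synthetases that were not among the 40 genes were compared with these. Of 12 other cytosolic synthetases, 4 were lower by 1.5-fold or more (*CARS*, *LARS*, *IARS*, and *TARS*, with log2 ratios from -1.37 to -0.76) and 1 was higher (*HARS*, 0.65), with a median of -0.23. Of 17 mitochondrial synthetases, *WARS2* (-1.07) and *SARS2* (-0.68) were lower, 5 were higher (among them *AARS2*, *MARS2*, *VARS2*, and *LARS2*, from 0.61 to 0.67), and the median was 0.18. The median of the mitochondrial synthetases was therefore close to that of all genes, 0.24. Of all genes, 14.2% were lower and 31% were higher by 1.5-fold or more. The counts for the mitochondrial synthetases were near these shares.

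Other targets reported for ATF4 or CHOP were often lower as well. Of 24 such genes with 100 UMIs or more, 13 were lower by 1.5-fold or more and 3 were higher, and the median log2 ratio over all 28 was -0.62. Among all genes, 14.2% were lower and 31% were higher by this fold. The most lowered with 100 UMIs or more were *VEGFA*, an angiogenic factor (44.1 CPM in mock-treated and 10.2 CPM in DAC-treated cells, -2.11), and the glycine transporter *SLC6A9* (-1.91). *GDF15*, a secreted stress cytokine, had 753 and 258 CPM (-1.55). *GADD45A* (-1.41), *PYCR1* of proline synthesis (-1.16), *HERPUD1* (-1.09), the translation inhibitor *EIF4EBP1* (-1.06), and the mitochondrial protease *LONP1* (-1.05) were lower, as were *ADM2*, *JDP2*, *KLHL24*, *TNFRSF10B*, and *SLC38A1*.

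The hepatokine *FGF21* had 45 UMIs in mock-treated and 5 in DAC-treated cells, and *INHBE*, which encodes an activin subunit, had 39 and 2 UMIs (log2 ratio, -4.53). In the other direction, *HMOX1*, heme oxygenase, had a log2 ratio of 0.93 and *SESN1* of 0.72. *TXNIP*, an arrestin that lowers glucose uptake, had 0 UMIs in mock-treated and 534 UMIs in DAC-treated cells, which is at least 150-fold higher if up to 3 UMIs in the whole library are allowed for a count of 0. *RAB39B*, a trafficking GTPase, had 0 and 22 UMIs, and *SLC7A3* had 0 and 5 UMIs.

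Of 18 genes upstream of ATF4, for eIF2α kinases, phosphatase subunits, eIF2B, and their regulators, 3 were lower and 5 were higher by 1.5-fold or more, and the median log2 ratio was 0.38. These counts were close to the shares of all genes that were lower (14.2%) and higher (31%). The lower ones were *PPP1R15A*, encoding GADD34, the phosphatase subunit that is itself an ATF4 and CHOP target (108 and 64.8 CPM in mock- and DAC-treated cells, -0.74), *OMA1* (-0.73), and *IMPACT* (-0.59). The kinases had log2 ratios of -0.21 for *EIF2AK1* (HRI), 0.13 for *EIF2AK3* (PERK), 0.54 for *EIF2AK4* (GCN2), and 0.84 for *EIF2AK2* (PKR), an interferon-stimulated gene. *EIF2B1* (1.07), *GCN1* (0.69), *EIF2B2* (0.61), and *EIF2S1* (0.61), which encodes eIF2α, were the others that were higher.

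Enzymes of related metabolism that were not among the 40 genes had a median log2 ratio of 0.26, close to that of all genes, over 17 genes without *PCK1*, of which 1 UMI was counted in the mock-treated library and 0 in the other. Of 15 with 100 UMIs or more, 2 were lower, namely *ASS1* of arginine synthesis (33.5 and 5.55 CPM, -2.59) and *GOT1*, cytosolic aspartate aminotransferase (176 and 56.2 CPM, -1.64). Of 3 that were higher, *ALDH1L1* had a log2 ratio of 1.47 and *TYMS*, thymidylate synthase, which is also among the S-phase genes, had 1.10. The count of lower genes was near the share of all genes (14.2%), and 31% of all genes were higher. The cytosolic one-carbon enzyme *SHMT1* had a log2 ratio of 0.57, opposite in sign to that of its mitochondrial form *SHMT2*.

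**Figure D2:**
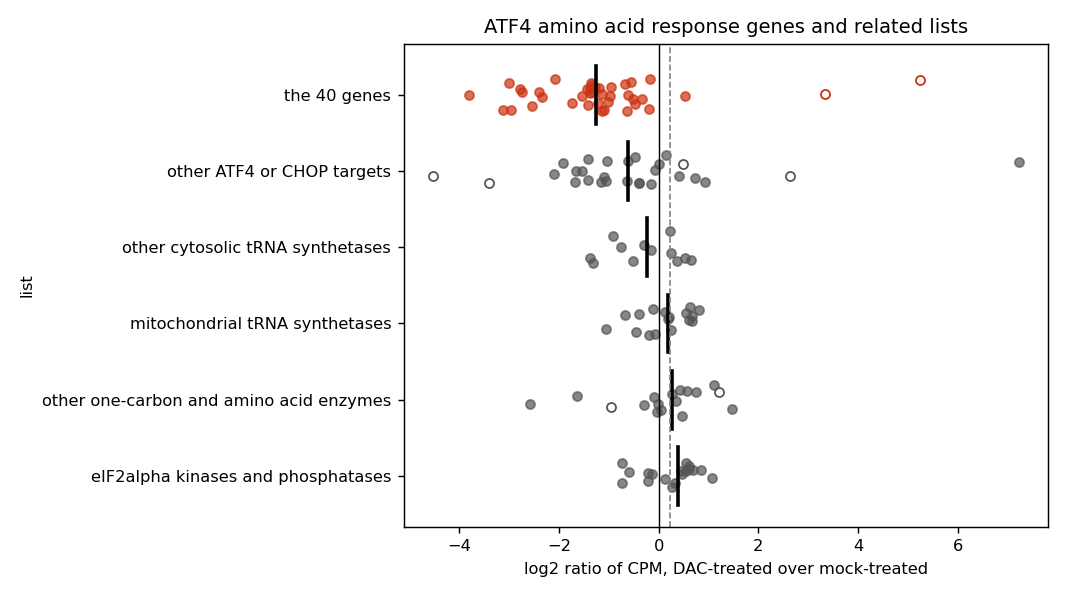
Log2 ratio of CPM, DAC-treated over mock-treated, for the 40 genes and for 5 lists of related genes, 1 point per gene. Open points have fewer than 100 UMIs over both libraries, thick lines are medians, the dashed line is the median of all genes, and genes at 0 in mock-treated cells are at their lower limit, while *PCK1*, at 0 in DAC-treated cells, is not drawn. The median is -1.25 for the 40 genes, -0.62 for other targets of ATF4 or CHOP, and 0.38 for the eIF2α kinases and phosphatases.

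The level of the program was then compared between single cells. Cells with 10000 UMIs or more and 50% mitochondrial UMIs or less were thinned to 10000 UMIs each, which kept 1298 mock-treated and 1120 DAC-treated cells and left out 485 and 631 cells. At this depth, the median sum of the 40 genes was 53 UMIs per mock-treated cell, with quartiles of 38 and 66 and a range from 7 to 111. It was 19 UMIs per DAC-treated cell, with quartiles of 14 and 24 and a range from 4 to 118. The distributions overlapped but were shifted as a whole. The sum was above the median of the DAC-treated cells in 92.6% of the mock-treated cells, and above the median of the mock-treated cells in 32 DAC-treated cells (2.86%). The median number of the 40 genes detected per cell was 22 for mock-treated and 12 for DAC-treated cells.

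**Figure D3:**
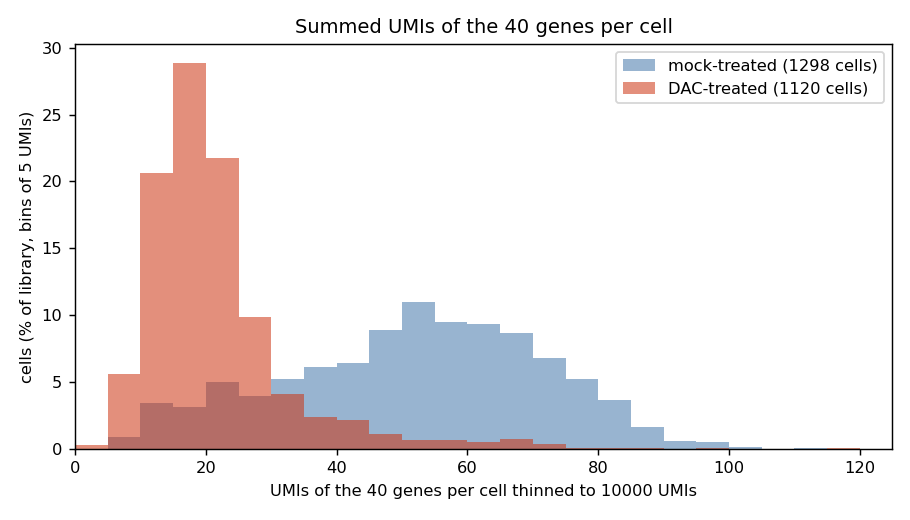
Summed UMIs of the 40 genes in each cell thinned to 10000 UMIs (x axis, bins of 5 UMIs), as a percentage of the cells of each library (y axis). Mock-treated cells (1298 cells, blue) center on 53 UMIs with a tail toward low values, and DAC-treated cells (1120 cells, red) center on 19 UMIs with a thin tail that reaches 118.

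A tail of cells with a high level was seen in the DAC-treated library. In 4 DAC-treated cells, the sum of the 40 genes was above 82 UMIs, a level exceeded by 5% of mock-treated cells. *DDIT3* had up to 59 UMIs in a DAC-treated cell and up to 17 in a mock-treated cell at this depth. The 5% of cells with the most UMIs of *DDIT3* held 68.1% of its UMIs in DAC-treated and 23.2% in mock-treated cells. Such a share also rises when a gene is lowered evenly, since fewer cells then have a UMI. The squared coefficient of variation beyond that of Poisson sampling, which corrects for this on average, was 37.5 in DAC-treated and 0.89 in mock-treated cells for *DDIT3*, 5.28 and 0.52 for *DDIT4*, and 2.34 and 0.33 for *ASNS*. A single DAC-treated cell held 59 of the 433 UMIs of *DDIT3* at this depth, and without the highest cell of each library the values for *DDIT3* were 23.2 and 0.83. For *ATF5* it was lower in DAC-treated cells, with 1.12 and 2.02. Of the 40 genes, *YARS* (0.173 and 0.171), *XPOT* (0.19 and 0.18), and *ATF3* (6.12 and 6.33) had similar values in both libraries. Outside the 40 genes, the value was higher in DAC-treated cells for *CDH1* (1.78 and 0.09) and *CLDN4* (2.84 and 0.53). It was lower for the S-phase genes *RRM2* (0.75 and 3.82) and *PCNA* (0.52 and 1.48). A larger spread was thus neither particular to the 40 genes nor shared by all of them.

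Because free RNA can give UMIs in cells that do not express a gene, and no cell type without these genes was present, the number of cells without a UMI was compared with that from an even share of the UMIs of all cells. For *ASNS*, at least 1 UMI was present in 79.1% of all mock-treated cells (95% Clopper-Pearson interval, 77.1 to 80.9%) and in 39.98% of all DAC-treated cells (37.7 to 42.3%). The mock-treated cells without a UMI of *ASNS* were 2.02 times as many as an even share gives, and the DAC-treated cells were 1.32 times as many. For *DDIT4*, 77.5% of mock-treated and 25.5% of DAC-treated cells had a UMI, and the cells without one were 1.91 and 1.19 times as many as an even share gives. The even share followed the total UMIs of each cell, mitochondrial UMIs included. The same ratios were 2.27 and 1.84 for *KRT18* and 1.57 and 1.32 for *EPCAM*. Such an excess was thus not particular to the 40 genes, and it does not separate free RNA from expression. At the equal depth, the shares of cells with a UMI were 83.8% and 23.4% for *ASNS*, 75.1% and 13.8% for *DDIT4*, and 94.4% and 70.9% for *ATF4*. *ATF4* was thus detected in most cells of both libraries, whereas *ASNS* and *DDIT4* were detected in most mock-treated cells and in a minority of DAC-treated cells.

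Correlations between genes over cells were computed within each library at this depth, for the 36 genes whose mean reached 0.05 UMI per cell in each library. *VLDLR*, *ALDH1L2*, *CBS*, and *SLC1A4* were below this mean. Cells of a library share their capture, and the correlations are descriptions without a test. Over 630 pairs, the median Pearson correlation of log2(UMIs + 1) was 0.11 in mock-treated and 0.06 in DAC-treated cells. It exceeded 0.2 for 105 and 25 pairs, respectively. The pair with the highest correlation in mock-treated cells was *ASNS* and *SLC3A2* (0.49, with 0.19 after DAC), followed by *ASNS* and *PSAT1* (0.39 and 0.31). In DAC-treated cells it was *CHAC1* and *NUPR1* (0.32, with 0.01 in the mock-treated library).

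Counting error dilutes the correlation of genes with few UMIs, and these genes had fewer UMIs in DAC-treated cells. When the UMIs of each gene were drawn down to an equal mean in both libraries, the median over pairs was 0.05 in mock-treated and 0.06 in DAC-treated cells, and 2 and 25 pairs were above 0.2. The higher median over pairs in mock-treated cells was therefore not kept at equal means. When linear effects of total UMIs, mitochondrial share, and S-phase and G2/M genes were removed, without equal means, the medians were 0.07 and 0.06.

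**Figure D4:**
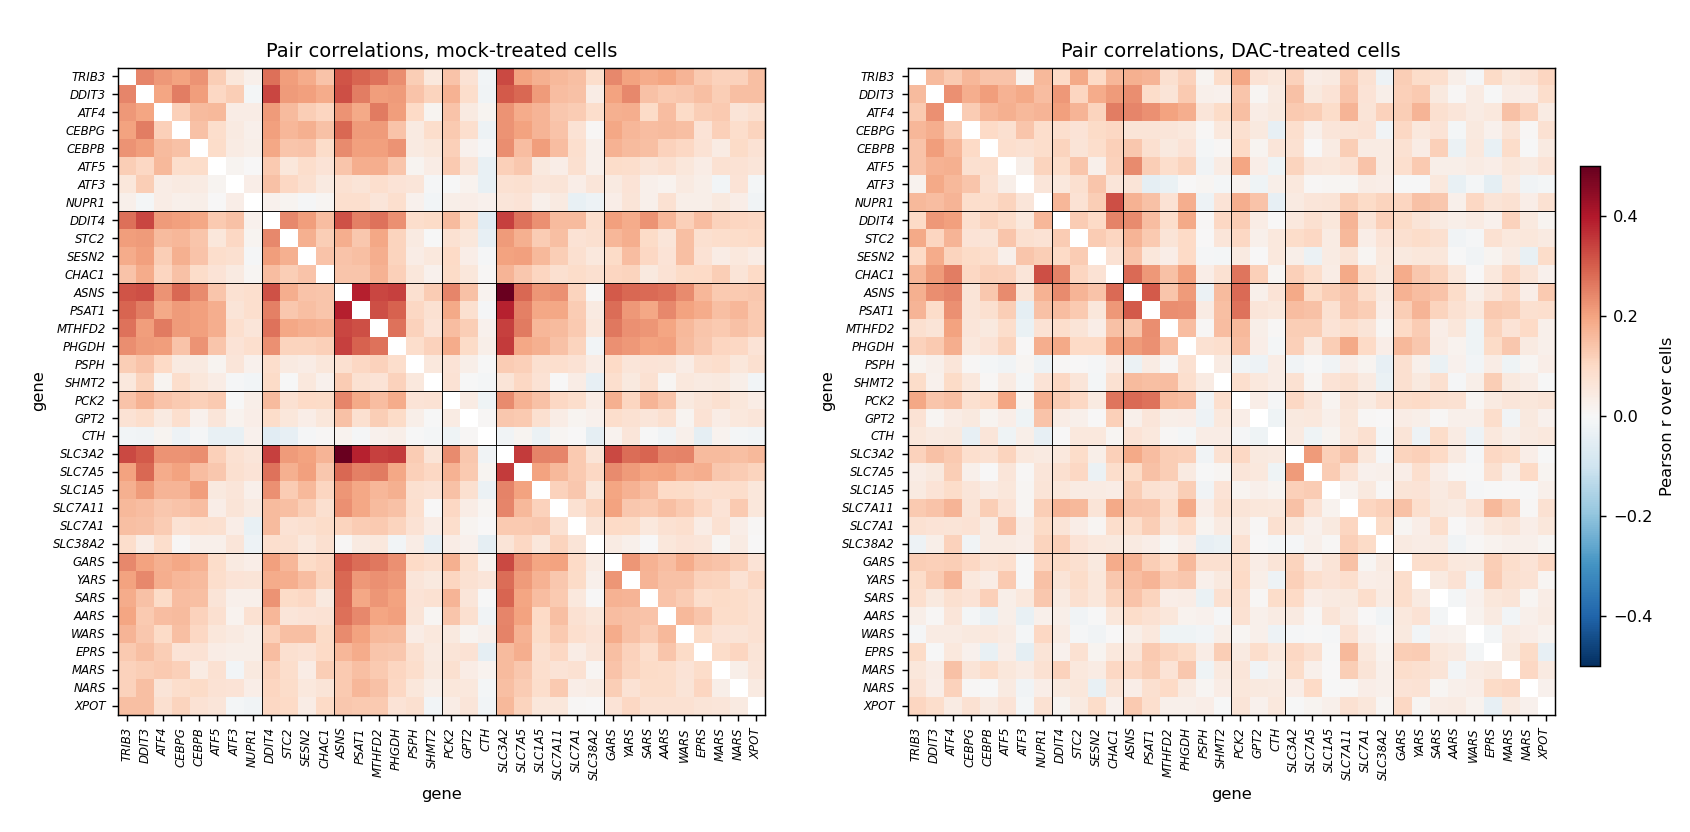
Pearson correlation over cells of log2(UMIs + 1) for each pair of 36 genes in mock-treated (left) and DAC-treated (right) cells thinned to 10000 UMIs. Black lines separate the 6 classes, and the color scale runs from -0.5 to 0.5. In mock-treated cells, *ASNS* and *SLC3A2* form the darkest pair at 0.49, and *ATF3*, *NUPR1*, *CTH*, and *SLC38A2* are pale throughout. The levels of the genes differ between the libraries, so the panels are not at equal means.

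Each of the 36 genes was also compared with the sum of the others in the same cell. In mock-treated cells, the correlation was highest for *SLC3A2* (0.61), *ASNS* (0.59), *PSAT1* (0.52), and *MTHFD2* (0.50), and the median over the 36 genes was 0.32. In DAC-treated cells, it was highest for *ASNS* (0.39), *ATF4* (0.39), *PSAT1* (0.34), and *CHAC1* (0.33), with a median of 0.20. At equal means, the medians were 0.19 in mock-treated and 0.20 in DAC-treated cells, so this order of the medians turned as well, although 19 of the 36 genes had the higher correlation in mock-treated cells. The values at equal means were 0.22 and 0.39 for *ASNS*, 0.43 and 0.29 for *SLC3A2*, and 0.25 and 0.38 for *ATF4*. Without equal means, 9042 genes outside the list were compared with the sum of the 40 genes. Their median correlation was 0.02 in mock-treated and 0.01 in DAC-treated cells. They included other targets of ATF4 or CHOP, such as *EIF4EBP1* (0.45 in mock-treated cells). Of the 36 genes, 31 were above the 95th percentile of the 9042 genes in each library (0.17 and 0.08). The 9042 genes were not matched for level, and few UMIs dilute a correlation. The part of the level in this comparison was not tested.

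In mock-treated cells, *CTH* (-0.02), *NUPR1* (0.09), *SLC38A2* (0.12), *SHMT2* (0.12), and *ATF3* (0.13) had the lowest correlations with the sum of the others. *CTH* and *NUPR1* also had the fewest UMIs of the 36 genes, with means of 0.06 and 0.10 UMI per mock-treated cell. In DAC-treated cells, the correlation was 0.24 for *NUPR1* and 0.17 for *SHMT2*, near the median of that library. The lowest in that library were *WARS* (0.03), *PSPH* (0.03), *SLC38A2* (0.06), *XPOT* (0.08), and *AARS* (0.08). *AARS* had a mean of 0.21 UMI per DAC-treated cell, and at equal means its correlation was also low in mock-treated cells, at 0.12.

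The classes were also related to one another. The sums of the asparagine, serine, and one-carbon enzymes and of the tRNA synthetases had a correlation of 0.63 over mock-treated and 0.28 over DAC-treated cells, the highest between classes in mock-treated cells. Between the transcription factors with *TRIB3* and the stress effectors it was 0.52 and 0.32, the highest between classes in DAC-treated cells. At equal means, these correlations were 0.35 and 0.28 for the first pair of classes and 0.26 and 0.32 for the second. Of the 15 pairs of classes, 9 were then higher in mock-treated cells, the highest being the transporters with the tRNA synthetases (0.40, with 0.19 after DAC). The sum of the 40 genes had a correlation with G2/M genes of 0.37 in mock-treated and 0.06 in DAC-treated cells, and with S-phase genes of 0.24 and 0.10. Because mitochondrial UMIs count toward the 10000 UMIs of a thinned cell, the other genes fall together as the mitochondrial share rises. With the linear effect of this share removed, the correlations were 0.29 and -0.02 with G2/M genes and 0.19 and 0.02 with S-phase genes. Within the mock-treated library, cells with a higher level of the program thus also had more UMIs of cell cycle genes, while between the libraries the program was lower and the cell cycle genes were higher in DAC-treated cells.

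In DAC-treated cells, the sum of the 40 genes had a correlation of 0.04 with the summed UMIs of the genes that never exceeded 2 UMIs in a mock-treated cell. The same correlation was -0.31 over mock-treated cells, in which these genes have few UMIs. For *ATF3* alone it was 0.30 over DAC-treated and -0.06 over mock-treated cells, and for *DDIT3* it was 0.18 and -0.18.

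The 10 genes outside the list with the highest correlation with the sum of the 40 genes in mock-treated cells were *PFDN2* (0.63), *RBCK1* (0.57), the ER chaperone *HSPA5* (0.57), *EIF1* (0.54), *TNFRSF12A* (0.53), *GOT1* (0.50), *MAP1LC3B* (0.49), *EIF2S2* (0.48), the mitochondrial chaperone *HSPA9* (0.48), and the EGFR ligand *AREG* (0.47). These genes were picked by their correlation in mock-treated cells, where the program was higher. All 10 had a log2 ratio below 0, from -1.90 for *RBCK1* to -0.08 for *MAP1LC3B*, as had 36.9% of all genes with 100 UMIs or more. In DAC-treated cells, they included *EIF1* (0.32), *ANKRD11* (0.25), *PPP1R15A* (0.24), *HSPA9* (0.21), *CARS* (0.21), *PYCR1* (0.21), *TAF1D* (0.20), *HSPA5* (0.20), and *TNFRSF12A* (0.20). *EIF1*, *HSPA5*, *HSPA9*, and *TNFRSF12A* were in both lists.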

How the data were processed

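The transcriptomes of single HCT116 cells, mock-treated or given DAC at 0.5 μM, were measured in 1 library for each condition. Reads had been aligned to hg38 with Cell Ranger, and the authors deposited unnormalized UMI counts for every gene in every cell. The annotation release and any filter on cells are not given in the sources used here. All deposited cells were used for summed values, and doublets were not called, since both cells of a doublet come from the same line.

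The 40 genes, the lists of related genes, the classes, and the 1.5-fold rule were chosen with earlier results of these data known. All 40 genes were named, and from other lists those past 1.5-fold, those with the largest changes, and the 10 genes outside the list most correlated with its sum. Ratios of CPM have exact conditional binomial intervals, shares of cells have Clopper-Pearson intervals, all with 95% coverage of counting error alone. No p-value is given, because the cells of a library do not replicate a condition. Correlations were computed after thinning cells to 10000 UMIs, with a pseudocount of 1. S-phase and G2/M genes were listed after the tables were seen. Positions are from GENCODE release 44, and promoters from RefSeq (GRCh38.p14). Python 3.11.15 with numpy 2.4.6, scipy 1.17.1, pandas 2.3.3, and matplotlib 3.10.9 was used, and the computations were tested on simulated data. Alternatives were other scalings, cell filters, depths, and thresholds. Some genes that met the rule for naming are not reported here.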

Additional observations from a re-analysis of the deposited data

How the results depend on the processing

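Of 33 genes past 1.5-fold, the sign of the log2 ratio was kept in 293 of 294 values under 9 other scalings, filters on cells, and depths. The exception was *NUPR1*, at 0.51 in cells thinned to about 1000 UMIs, where few of its UMIs were left. In 289 of the 294 values the gene also stayed past 1.5-fold, and the calls of *SLC1A5*, *NUPR1*, and *SLC1A4* were lost at least once. Leaving out the cells over 50% mitochondrial UMIs, an alternative chosen after seeing the data, gave a median of -1.23 for the 40 genes. With median-of-ratios scaling, the median log2 ratio was -1.49 for the 40 genes, -1.38 for the transcription factors and *TRIB3*, -1.98 for the stress effectors, -1.59 for the asparagine, serine, and one-carbon enzymes, -1.01 for the other metabolic enzymes, -1.35 for the transporters, and -1.43 for the tRNA synthetases. With cells thinned to about 1000 UMIs, it was -2.002 for the stress effectors, -1.43 for the asparagine, serine, and one-carbon enzymes, -1.003 for the other metabolic enzymes, -1.002 for the transporters, and -0.98 for the tRNA synthetases. The latter had -1.09 with the mean of per-cell CPM. With 1000 UMIs or more required, 34 genes were left, none was higher by 1.5-fold, that is 0 in place of 2, and the median was -1.35.

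The median pair correlation in mock-treated cells was 0.18 at 20000 UMIs per cell, 0.0537 at 5000 UMIs, 0.25 without thinning, and 0.0465 at equal means, an alternative chosen after seeing the data. In DAC-treated cells it was 0.15 without thinning. The class correlations at equal means, the spread without the highest cell, and the correlations without the effect of the mitochondrial share were also computed after seeing the data. Depth limits these correlations, since thinning more lowered them in both libraries. No paired analysis was possible because each condition had 1 library and no test was made.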

Other observations

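Genes with the most negative correlation with the sum of the 40 genes were looked up after the values were seen. In mock-treated cells, they were *SAT1*, which acetylates polyamines (-0.51), the ribosomal protein gene *RPL7A* (-0.45), the transcription factor *SOX4* (-0.45), *S100A4* (-0.44), and *CYB5B* (-0.43). In DAC-treated cells, the correlations of these 5 genes lay between -0.09 and 0.01. *SAT1* had 73584 UMIs in mock-treated and 11178 UMIs in DAC-treated cells, a log2 ratio of -2.96. It was thus lower in DAC-treated cells by about as much as *TRIB3*, although the mock-treated cells with more *SAT1* had less of the program.

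In cells with more than 50% mitochondrial UMIs, which the correlations left out, the 40 genes had 9122 UMIs per 1000000 non-mitochondrial UMIs in mock-treated and 4264 in DAC-treated cells. In the other cells, they had 6345 and 2555, on the same scale. Single genes differed in this. In mock-treated cells, *ASNS* had 330 in the cells over 50% and 348 in the other cells, whereas *DDIT3* had 245 and 196 and *ATF3* had 120 and 47.2. In DAC-treated cells, *ASNS* had 51.2 and 40.6.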
